A study of Mus musculus with 12 samples.

Results

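Lysosomal genes other than the cathepsins were followed in sorted mouse leukaemia cells: 41 genes that encode hydrolases, their helper proteins, membrane proteins, 2 proton pump components and the transcription factor Tfeb. They were taken by gene symbol, and all 41 were found among the 33531 symbols of each of the 12 RNA libraries. RPKM (reads per kilobase of gene, scaled to sequencing depth) is the unit of every level below. Testing needed an average of 1 RPKM or more across all 12 libraries, which 39 of the 41 reached, and each of these 39 also had a mean of at least 1 in all 4 groups. Arsb and Sgsh did not reach it.

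The lysosome is the acid compartment in which cells break down lipids, glycans, proteins and nucleic acids taken up from outside or delivered from within. Its hydrolases are made in the endoplasmic reticulum, mostly tagged with mannose 6-phosphate in the Golgi and sorted by receptors for it, while heavily glycosylated proteins such as LAMP1 and LAMP2 line its membrane and a proton pump acidifies it. Transcription factors of the TFEB family bind an E-box called the CLEAR element near many of these genes. In blood cells, monocytes and macrophages are rich in lysosomes, and TLR9, the receptor for CpG DNA, signals from endolysosomes.

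The cells were the CMM-tetON-shStat3 line, labelled AML (acute myeloid leukaemia), which in all 4 groups carries a doxycycline-inducible hairpin against Stat3 and the GFP and mCh markers used for the sort. The series title places them in inv(16) leukaemia. They grew in immunodeficient NSG mice, which were treated through the vein with PBS, with CpG1668 (a DNA oligonucleotide that activates TLR9), with doxycycline (Dox), or with CpG1668 and Dox together (CpG1668+Dox). Leukaemia cells were sorted from the spleen 1 day after the last treatment. Each group had 3 libraries. The submitters give 2 different dosing schedules, and the labels leave unsaid whether each library stands for its own mouse. P-values here therefore measure the spread between libraries, which may be technical. All libraries come from the same line, NSG mice lack their own lymphocytes but keep host myeloid cells, and no group received Dox without the hairpin, so effects of Dox and of the hairpin cannot be told apart.

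Estimated depth was 30300000 to 34900000 reads per library. The Stat3 transcript was not lower where Dox was given, at 16.8 to 17.9 RPKM in PBS, 17.6 to 18.5 in CpG1668, 18.8 to 19.1 in the libraries labelled Dox and 19.0 to 19.7 in those labelled CpG1668+Dox, so each direction below is between libraries as labelled. Kit was at 15.8 to 19.7 in the 12 libraries, while the pan-leucocyte gene Ptprc was at 0.429 to 0.742 in PBS and 3.25 to 4.60 in CpG1668+Dox, Cd34 did not exceed 0.487, and the erythroid factor gene Gata1 was at 85.6 to 107. The transcript of Tlr9 itself was low, at 0.0616 to 0.17 in PBS and 0.356 to 0.511 in CpG1668+Dox.

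More of the lysosomal genes rose with both agents than with either alone. Of the 39 tested, 18 rose and 1, Dnase2a, fell in CpG1668+Dox against PBS (limma, Benjamini-Hochberg adjusted p under 0.05 over 12167 genes), where 9.13% of all genes tested rose and 6.4% fell (15.5% in either direction). CpG1668 alone raised 6 members and lowered 0 (3.06% and 2.83% of all genes, 5.88% in all), and Dox alone raised 5 and lowered 1 (3.95% and 2.04%, 5.98% in all). The median log2 change of the members was 0.13 in CpG1668+Dox, 0.06 in CpG1668 and 0.08 in Dox, beside 0.00, -0.01 and 0.01 over all genes tested. These 3 comparisons share their PBS libraries, so their values stand side by side and are not independent. Summed over the 41 genes, expression was 519, 532 and 541 RPKM in the PBS libraries sorted by value, 577 to 604 with CpG1668, 582 to 600 with Dox and 654 to 718 with CpG1668+Dox. The single gene Psap made up 52.4% of the rise from PBS to CpG1668+Dox, and without it the sums were 464 to 478 in PBS and 528 to 562 in CpG1668+Dox.

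**Figure D1:**
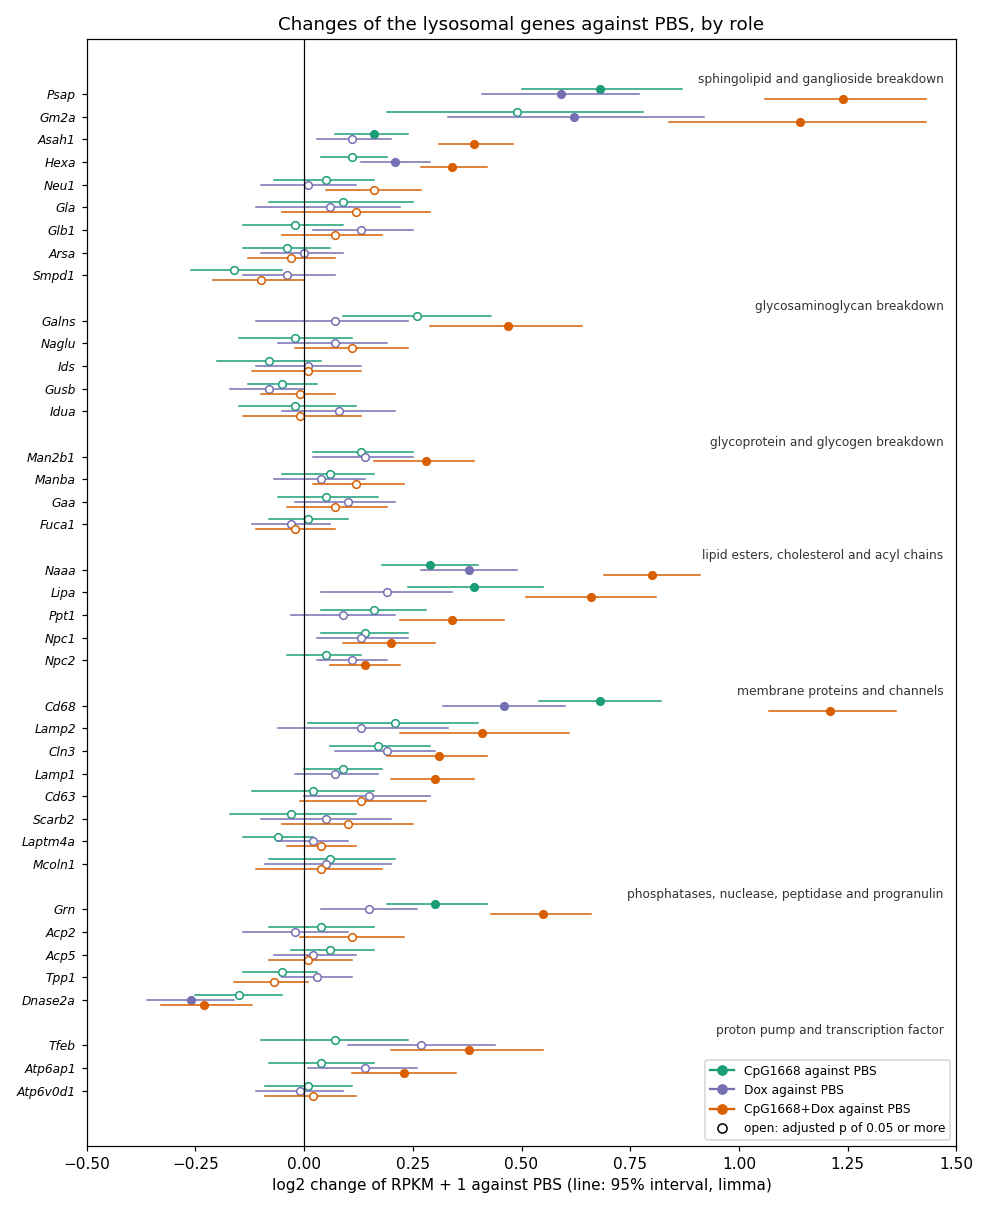
Log2 changes of RPKM + 1 against PBS (x axis) for the 39 tested lysosomal genes grouped by role (y axis), with 95% intervals from limma; filled points passed an adjusted p of 0.05. In CpG1668+Dox against PBS, 18 genes rose and Dnase2a fell, and the 20 genes that were not called lay between -0.10 and 0.16.

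Promoters of the members were searched for the E-box core CACGTG and for the longer form TCACGTGA. Both read the same on either strand, and each longer match contains the core. RefSeq promoters (GRCm38.p6, the build named for the reads, 250 bases before to 50 after a start) were found for 38 members; Galns, Asah1 and Npc1 were not among them. The core was in 10 of these 38 genes (26.3%) and in 12.2% of the tested genes with a promoter, and the longer form in 4 (10.5%) and in 2.39%. Of the 44 member promoters 22.7% held the core, beside 10.4% of the 10213 promoters of tested genes and 7.15% of all 32851 promoters. Among the members themselves it was found in 2 of the 15 members with a promoter that rose in CpG1668+Dox against PBS (Lamp1 and Cln3) and in 8 of the 23 others. These 8 are Arsa, Atp6v0d1, Gaa, Gla, Glb1, Mcoln1, Naglu and Sgsh, of which Sgsh was below the filter and not tested. Sgsh and Arsb, both counted among the 23, were called higher in the fit without the filter described below. These counts are descriptions of short windows and say nothing about binding. Printed here are the promoters of the 2 genes that rose and hold the core, of Mcoln1, which holds it and was not called, and of Psap and Cd68, the tested members with the largest log2 changes of RPKM + 1, in which it was not found. Capitals mark the core.
Lamp1, chr8:13158911-13159210, plus strand: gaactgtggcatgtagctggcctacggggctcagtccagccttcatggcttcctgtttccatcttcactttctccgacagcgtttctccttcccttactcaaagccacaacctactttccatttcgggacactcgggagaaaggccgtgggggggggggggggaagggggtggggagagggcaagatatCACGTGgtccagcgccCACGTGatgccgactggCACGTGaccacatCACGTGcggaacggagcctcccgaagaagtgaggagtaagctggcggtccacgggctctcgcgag
Cln3, chr7:126583187-126583486, minus strand: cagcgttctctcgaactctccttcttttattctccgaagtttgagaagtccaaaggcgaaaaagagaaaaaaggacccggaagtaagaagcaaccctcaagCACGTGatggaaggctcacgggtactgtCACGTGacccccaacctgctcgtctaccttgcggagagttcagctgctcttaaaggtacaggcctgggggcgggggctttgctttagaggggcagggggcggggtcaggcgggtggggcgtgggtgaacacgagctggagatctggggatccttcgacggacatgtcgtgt
Mcoln1, chr8:3500269-3500568, plus strand: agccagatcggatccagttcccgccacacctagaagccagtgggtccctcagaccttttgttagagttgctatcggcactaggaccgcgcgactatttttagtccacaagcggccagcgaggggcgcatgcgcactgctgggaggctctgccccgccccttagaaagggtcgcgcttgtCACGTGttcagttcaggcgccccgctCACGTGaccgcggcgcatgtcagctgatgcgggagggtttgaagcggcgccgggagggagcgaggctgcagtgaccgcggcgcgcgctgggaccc
Psap, chr10:60277378-60277677, plus strand: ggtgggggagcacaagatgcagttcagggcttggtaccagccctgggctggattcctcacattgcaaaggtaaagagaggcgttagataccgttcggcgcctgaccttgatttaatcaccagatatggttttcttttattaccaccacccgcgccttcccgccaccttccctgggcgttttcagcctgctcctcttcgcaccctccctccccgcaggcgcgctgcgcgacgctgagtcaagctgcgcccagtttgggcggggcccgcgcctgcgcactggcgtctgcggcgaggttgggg
Cd68, chr11:69666121-69666420, minus strand: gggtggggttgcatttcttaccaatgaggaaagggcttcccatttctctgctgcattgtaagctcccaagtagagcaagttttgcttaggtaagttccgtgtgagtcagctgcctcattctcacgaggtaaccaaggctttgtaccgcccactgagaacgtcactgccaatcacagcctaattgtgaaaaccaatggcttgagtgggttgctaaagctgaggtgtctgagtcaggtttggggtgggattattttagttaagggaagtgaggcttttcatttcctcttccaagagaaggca
The Lamp1 window holds the core 4 times, the Cln3 and Mcoln1 windows each hold it 2 times, and the second RefSeq starts of Cln3 and Psap had none.

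Breakdown of sphingolipids and gangliosides involves 9 members, of which 4 rose in CpG1668+Dox (Psap, Gm2a, Asah1 and Hexa), 0 fell and 5 were not called. Of all genes tested, 9.13% rose and 6.4% fell. Role groups are small, and their counts are not read as traits of a role. Psap encodes prosaposin, which is cut into the saposins that hold sphingolipids for their hydrolases, and it was the most abundant member (ENSMUSG00000004207.14, chromosome 10, 60277627 to 60302597, plus strand, GRCm38). Its RPKM was 54.8, 63.2 and 55.0 in PBS, 90.1, 94.1 and 95 with CpG1668, 85.1, 94.7 and 81.8 with Dox and 133, 125 and 156 with CpG1668+Dox. The PBS libraries all lay below both single treatments and the CpG1668+Dox libraries all above them, while the single treatments overlapped each other. The log2 change of Psap was 0.68 ± 0.08 (SE) for CpG1668 (adjusted p = 0.00065), 0.59 ± 0.08 for Dox (adjusted p = 0.003) and 1.24 ± 0.08 for both (adjusted p = 2.2e-06), a 2.40-fold ratio of means.

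Hexa and Gm2a act together, since the beta-hexosaminidase A enzyme, whose alpha chain Hexa encodes, takes ganglioside GM2 from the activator protein made by Gm2a. Gm2a (ENSMUSG00000000594.7, chromosome 11, 55098115 to 55113029, plus strand) was at 4.37, 5.77 and 4.58 RPKM in PBS, 7.42, 6.82 and 7.5 with CpG1668, 6.95, 9.94 and 7.48 with Dox and 12.4, 9.88 and 13.7 with CpG1668+Dox. Library 2 of those labelled Dox, at 9.94, stood inside the range of the CpG1668+Dox libraries. Gm2a rose by 1.14 ± 0.13 (SE) on the log2 scale in CpG1668+Dox (adjusted p = 0.00014) and by 0.62 in Dox (adjusted p = 0.021), and its change of 0.49 in CpG1668 was not called (adjusted p = 0.056). The call of Gm2a in Dox was lost without PBS library 1 or 3 or Dox library 2 (log2 0.48 to 0.58, adjusted p of 0.07 to 0.076). Hexa was at 25.8, 26.1 and 25.9 in PBS, 27.5, 28.9 and 28.2 with CpG1668, 29.3, 30.0 and 31.2 with Dox and 33.6, 31.9 and 34.1 with CpG1668+Dox. Its groups followed each other without overlap in that order, in steps that were small beside those of Gm2a. Hexa rose by 0.34 ± 0.04 in CpG1668+Dox (adjusted p = 5.6e-05) and by 0.21 in Dox (adjusted p = 0.007), and its 0.11 in CpG1668 was not called (adjusted p = 0.092).

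Asah1, the acid ceramidase gene, was at 4.63, 4.77 and 4.89 RPKM in PBS, 5.44, 5.60 and 5.25 with CpG1668, 4.98, 5.44 and 5.26 with Dox and 6.51, 6.58 and 6.64 with CpG1668+Dox. Every CpG1668+Dox library lay above every other one. It rose by 0.39 ± 0.04 (SE) with both agents (adjusted p = 3.3e-05), and its call at 0.16 in CpG1668 (adjusted p = 0.037) was lost without any 1 of the PBS or CpG1668 libraries (adjusted p of 0.054 to 0.12). It was also lost without Dox library 3 or CpG1668+Dox library 1 or 2 (adjusted p of 0.052 to 0.055). The other members of the set were not called against PBS in any of the 3 comparisons. They were the alpha-galactosidase gene Gla (1.79 to 2.04 RPKM in group means), the beta-galactosidase gene Glb1 (14.3 to 16.0), the sialidase gene Neu1 (10.7 to 12), the sulfatide sulfatase gene Arsa (5.51 to 5.68) and the acid sphingomyelinase gene Smpd1 (11.1 to 12.5). Neu1 came closest in CpG1668+Dox, at 0.16 (adjusted p = 0.051), and Smpd1 was at -0.10 there (adjusted p = 0.17).

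Lipid esters, cholesterol and acyl chains are handled by 5 members, and these were the one role group in which every member rose with both agents. Naaa, the N-acylethanolamine acid amidase gene (ENSMUSG00000029413.14, chromosome 5, 92257659 to 92278170, minus strand), was at 3.26, 2.89 and 2.91 RPKM in PBS, 4.04, 3.76 and 3.96 with CpG1668, 4.13, 4.54 and 4.06 with Dox and 6.03, 5.77 and 6.16 with CpG1668+Dox. All libraries of CpG1668+Dox stood above all others. Its log2 change was 0.29 for CpG1668 (adjusted p = 0.0069), 0.38 for Dox (adjusted p = 0.0024) and 0.80 ± 0.05 (SE) for both (adjusted p = 1.5e-06), a 1.98-fold ratio of means.

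Lipa, the acid lipase that releases cholesterol and fatty acids from lipoprotein esters, was at 1.37, 1.75 and 1.48 RPKM in PBS, 2.35, 2.41 and 2.21 with CpG1668, 1.78, 1.86 and 2.03 with Dox and 2.94, 2.75 and 3.28 with CpG1668+Dox. The CpG1668 libraries lay above those labelled Dox without overlap, although that difference was not called (log2 0.20, adjusted p = 0.18). Lipa rose by 0.66 ± 0.07 (SE) with both agents (adjusted p = 6e-05) and by 0.39 with CpG1668 (adjusted p = 0.0069). Ppt1, the palmitoyl-protein thioesterase gene, was at 9.76, 9.53 and 9.99 in PBS, 11.1, 10.8 and 11.3 with CpG1668, 10, 11.1 and 10.4 with Dox and 12.5, 11.6 and 13.8 with CpG1668+Dox, a rise of 0.34 ± 0.05 with both agents (adjusted p = 0.0014). It shares 3.51% of its exon bases with Cap1 on the other strand, a gene at 91.9 RPKM on average, and Npc1 (mean 1.71 RPKM) shares 4.52% with Rmc1, at 7.86 RPKM and also on the other strand. Whether the counting used strand is not stated. The cholesterol exporters changed least of the 5, Npc1 from 1.49 ± 0.0789 (SD, n = 3) to 1.85 ± 0.0359 RPKM and Npc2 from 23.6 ± 0.571 to 26.1 ± 0.663. Their log2 changes with both agents were 0.20 (adjusted p = 0.016) and 0.14 (adjusted p = 0.024), and that of Npc1 was not called under quantile normalization (0.10, adjusted p = 0.15). Both calls depended on single libraries, that of Npc1 on PBS library 3 and CpG1668+Dox libraries 1 and 2 (adjusted p of 0.051 to 0.063 without them). That of Npc2 depended on PBS libraries 1 and 3 and CpG1668+Dox libraries 1 and 2 (adjusted p of 0.051 to 0.092 without them).

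Membrane proteins and channels had 8 members, of which Cd68, Lamp2, Cln3 and Lamp1 rose with both agents and 0 fell (9.13% and 6.4% of all genes). Cd68, the macrosialin gene known for its abundance in mononuclear phagocytes (ENSMUSG00000018774.13, chromosome 11, 69664213 to 69666153, minus strand), was at 4.97, 5.51 and 5.51 RPKM in PBS, 8.97, 8.97 and 9.42 with CpG1668, 7.12, 8.22 and 7.76 with Dox and 13.8, 12.5 and 14.9 with CpG1668+Dox. None of the 4 groups overlapped another. Its log2 change was 0.68 ± 0.06 (SE) for CpG1668 (adjusted p = 0.00015), 0.46 ± 0.06 for Dox (adjusted p = 0.0029) and 1.21 ± 0.06 for both (adjusted p = 5.7e-07), and the 2.57-fold ratio of means was the largest of the tested members.

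The LAMP genes coat the lysosomal membrane and differed in level, Lamp1 at 51.8 ± 1.10 (SD, n = 3) RPKM in PBS and Lamp2 at 5.49 ± 0.682. Lamp1 was at 55.1 ± 1.62 with CpG1668, 54.6 ± 3.06 with Dox and 63.7 ± 1.52 with CpG1668+Dox, a rise of 0.30 ± 0.04 (SE) on the log2 scale (adjusted p = 0.00065), and neither single treatment was called (adjusted p = 0.27 and 0.37). Lamp2 was at 4.75, 5.62 and 6.10 in PBS, 6.83, 6.29 and 6.28 with CpG1668, 5.74, 6.00 and 6.55 with Dox and 7.29, 6.89 and 8.72 with CpG1668+Dox. Its CpG1668+Dox libraries lay above all others, and it rose by 0.41 ± 0.09 (adjusted p = 0.0085). Cln3, a membrane protein gene mutated in juvenile Batten disease, was at 2.07, 2.18 and 2.05 in PBS, 2.49, 2.53 and 2.46 with CpG1668, 2.29, 2.79 and 2.51 with Dox and 2.82, 2.91 and 2.77 with CpG1668+Dox, a rise of 0.31 ± 0.05 (adjusted p = 0.0025). It shares 7.65% of its exon bases with Apobr on the other strand, a gene at 1.97 RPKM on average. The part of Apobr reads in this rise was not tested. The remaining 4 were not called in any comparison: Laptm4a at group means of 37.3 to 40.0, the tetraspanin gene Cd63 at 14.5 to 16.2, Scarb2, whose product carries glucocerebrosidase to the lysosome, at 4.19 to 4.66, and the cation channel gene Mcoln1 at 3.88 to 4.09.

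**Figure D2:**
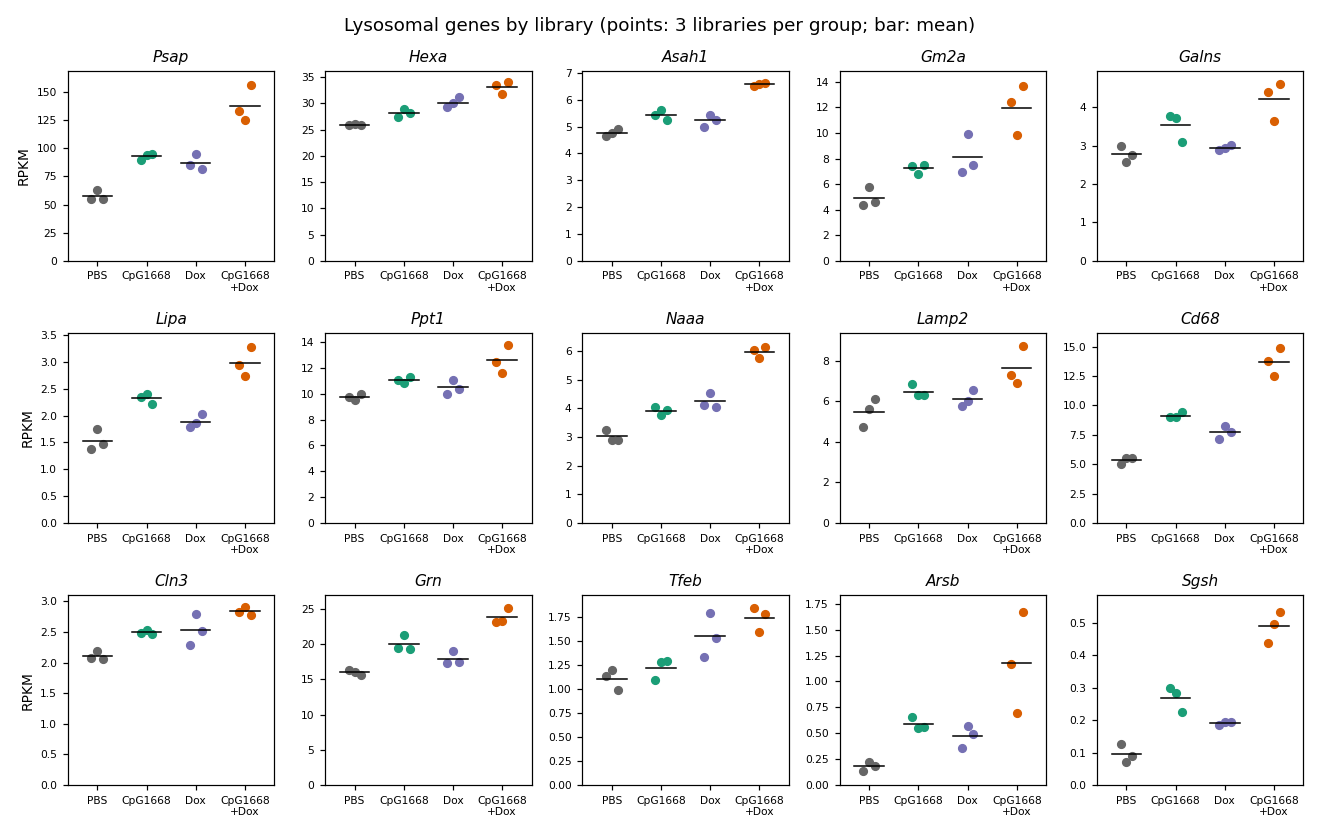
RPKM (y axis, from 0) of 15 lysosomal genes in each library, by group (x axis); points are the 3 libraries and the bar their mean. Shown are the 13 genes called in any comparison with group means at least 25% apart, and the low genes Arsb and Sgsh; Cd68 runs from 4.97 to 5.51 in PBS and from 12.5 to 14.9 in CpG1668+Dox.

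Among the genes of glycan breakdown, 2 of 9 tested rose with both agents and 0 fell (9.13% and 6.4% of all genes). They were Galns, of the 5 that act on glycosaminoglycans, and Man2b1, of the 4 that act on glycoproteins and glycogen. Galns, a sulfatase for keratan and chondroitin sulfate, was at 2.99, 2.57 and 2.77 RPKM in PBS, 3.77, 3.72 and 3.11 with CpG1668, 2.88, 2.95 and 3.01 with Dox and 4.40, 3.65 and 4.62 with CpG1668+Dox. The Dox libraries overlapped PBS, and CpG1668+Dox overlapped CpG1668. Its log2 change was 0.47 ± 0.08 (SE) with both agents (adjusted p = 0.0019), 0.26 with CpG1668 (adjusted p = 0.077) and 0.07 with Dox (adjusted p = 0.7). Man2b1, the lysosomal alpha-mannosidase gene, went from 20.8 ± 0.170 (SD, n = 3) in PBS to 25.3 ± 1.40 in CpG1668+Dox, a log2 change of 0.28 (adjusted p = 0.0044).

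Not called among the glycan enzymes were the beta-glucuronidase gene Gusb (group means of 25.2 to 26.8 RPKM), the heparan sulfate enzyme gene Naglu (2.57 to 2.91), the iduronate enzymes Ids (3.76 to 4.04) and Idua (1.82 to 2.02), the glycogen-degrading Gaa (9.14 to 9.84), Manba (4.62 to 5.12) and the fucosidase gene Fuca1 (17.3 to 17.9). The members below the filter belong here too. Arsb, which removes sulfate from dermatan sulfate, was at 0.133, 0.225 and 0.188 RPKM in PBS, 0.654, 0.552 and 0.556 with CpG1668, 0.360, 0.572 and 0.495 with Dox and 1.17, 0.696 and 1.67 with CpG1668+Dox. Sgsh, the heparan N-sulfatase gene, was at 0.125, 0.0707 and 0.0884 in PBS, 0.298, 0.282 and 0.226 with CpG1668, 0.184, 0.193 and 0.194 with Dox and 0.436, 0.495 and 0.534 with CpG1668+Dox. Their PBS libraries lay below all treated ones, and their CpG1668+Dox libraries above all others. As ratios of means they changed more than any tested member, 6.46-fold for Arsb and 5.16-fold for Sgsh. In a fit of all 33531 genes without the filter, both were called higher with both agents against PBS (log2 0.86, adjusted p = 0.0052, and 0.44, adjusted p = 7.4e-05). For scale, 3 reads on a gene of 1 kb correspond to 0.086 to 0.099 RPKM at the estimated depths, and on a longer gene to less. Sgsh shares 21.6% of its exon bases with Card14 (0.00107 RPKM) on the other strand. Arsb shares 32.3% with Gm26527, a long non-coding RNA gene that is not among the 33531 symbols, so its level is unknown here. It also shares 7.67% with Gm47210 (0.0103 RPKM), and both of these genes lie on the other strand.

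Of the 5 genes for phosphatases, a nuclease, a peptidase and progranulin, 1 rose and 1 fell with both agents (9.13% and 6.4% of all genes), and 3 were not called. Grn, whose product progranulin is cut into granulins and supports other lysosomal enzymes, was at 16.4, 16.1 and 15.6 RPKM in PBS, 19.5, 21.3 and 19.3 with CpG1668, 17.3, 19.0 and 17.4 with Dox and 23.1, 23.3 and 25.2 with CpG1668+Dox. None of its 4 groups overlapped another, with the libraries labelled Dox between PBS and CpG1668. Its log2 change was 0.30 for CpG1668 (adjusted p = 0.0056), 0.15 for Dox (adjusted p = 0.12) and 0.55 ± 0.05 (SE) for both (adjusted p = 2.2e-05).

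Dnase2a, the acid DNase that digests DNA of engulfed cells and of the nuclei cast off by red cell precursors, was the one member that fell. It was at 7.25, 7.74 and 7.38 RPKM in PBS, 6.14, 6.96 and 6.79 with CpG1668, 6.17, 5.84 and 6.14 with Dox and 6.46, 6.00 and 6.21 with CpG1668+Dox, so that all treated libraries lay below all PBS libraries. Its log2 change was -0.15 for CpG1668 (adjusted p = 0.092), -0.26 for Dox (adjusted p = 0.0084) and -0.23 for both (adjusted p = 0.007). Beside it, 11 of 13 tested erythroid markers fell with both agents, with summed levels of 5770 to 7430 RPKM in PBS and 1920 to 2740 in CpG1668+Dox; their part in the fall of Dnase2a was not tested. Dnase2a also shares 30% of its exon bases with Mast1 on the other strand, a gene at 0.0537 RPKM. Acp5, the tartrate-resistant acid phosphatase gene (34.4 to 35.9 in group means), Acp2 (3.12 to 3.51) and the tripeptidyl peptidase gene Tpp1 (17.1 to 18.5) were not called.

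Tfeb, the transcription factor gene, had the lowest level of the tested members, with 1.14, 1.2 and 0.986 RPKM in PBS, 1.09, 1.28 and 1.29 with CpG1668, 1.33, 1.79 and 1.53 with Dox and 1.84, 1.59 and 1.78 with CpG1668+Dox. All libraries with a Dox label lay above all without one, the CpG1668 libraries overlapping PBS. It rose by 0.38 ± 0.08 (SE) with both agents (adjusted p = 0.0073), and its 0.27 with Dox (adjusted p = 0.071) and 0.07 with CpG1668 (adjusted p = 0.66) were not called. Of the proton pump components, the accessory gene Atp6ap1 went from 19.8 ± 1.22 (SD, n = 3) to 23.4 ± 1.33 (0.23, adjusted p = 0.017). That call was lost without PBS library 3 or CpG1668+Dox library 1 or 3 (adjusted p of 0.058 to 0.07). Atp6v0d1, a subunit of the membrane sector, was not called, at group means of 35.6 to 36.3.

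Each agent was also added to the other. Against CpG1668 alone, CpG1668+Dox was higher for 8 members and lower for 0 (3.07% and 0.197% of all genes, 3.26% in all), namely Psap, Gm2a, Hexa, Asah1, Cd68, Lamp1, Naaa and Grn. Against Dox alone, it was higher for 9 and lower for 0 (2.81% and 0.666% of all genes, 3.48% in all), namely Psap, Asah1, Cd68, Lamp1, Naaa, Grn, Lipa, Ppt1 and Galns. Naaa changed by 0.51 in the first of these (adjusted p = 0.0015) and by 0.41 in the second (adjusted p = 0.00078), and Cd68 by 0.54 (adjusted p = 0.0032) and 0.76 (adjusted p = 0.00015). The first count was 5 without CpG1668 library 1 or 3 or without CpG1668+Dox library 1 or 3, and in each of these cases Gm2a, Grn and Lamp1 lost their calls (adjusted p of 0.058 to 0.12). Against Dox alone, Galns and Ppt1 lost theirs without Dox library 1 or CpG1668+Dox library 1 or 3, Ppt1 also without Dox library 3, and Lamp1 without Dox library 2 or CpG1668+Dox library 3 (adjusted p of 0.054 to 0.11). The CpG1668 and Dox groups themselves differed in 0 of 39 members (limma), where 0.353% of all genes were higher in CpG1668 and 1.21% lower (1.56% in all). An unadjusted p under 0.05 was found for 9 of the 39 members and for 1853 of the 12167 genes.

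The interaction asks whether the change with both agents differs from the sum of the single changes on the log2 scale. It was called for 0 of 39 members (limma; 4 at an unadjusted p under 0.05), and for 0% of the 12167 genes (812 at an unadjusted p under 0.05). Estimates ran from -0.08 to 0.18, with 95% intervals between -0.39 and 0.44 in all. For Psap it was -0.03 (-0.29 to 0.23), for Cd68 0.08 (-0.12 to 0.28), for Naaa 0.12 (-0.03 to 0.28) and for Gm2a 0.03 (-0.39 to 0.44). A p that misses the threshold does not show that the changes add up.

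**Figure D3:**
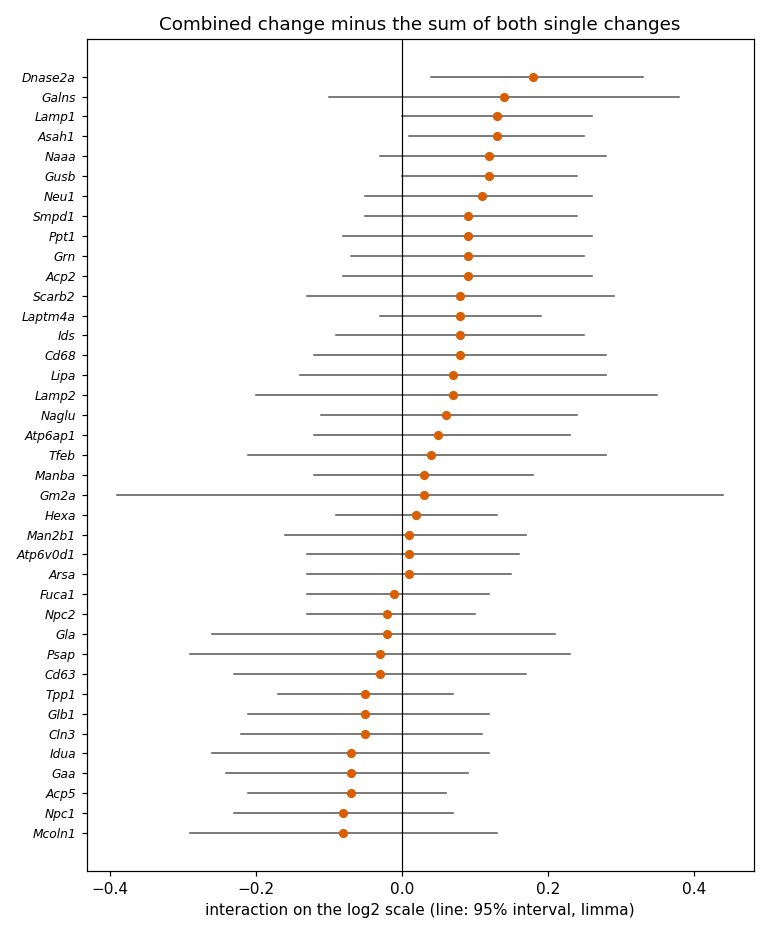
Interaction estimates (x axis, log2 scale) with 95% intervals from limma for the 39 tested lysosomal genes (y axis), that is, the change with both agents minus the sum of both single changes. The estimates lie between -0.08 (Mcoln1 and Npc1) and 0.18 (Dnase2a), and 0 passed an adjusted p of 0.05.

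A stepwise order, with every PBS library below every singly treated library and these below every CpG1668+Dox library, was found in 10 members: Psap, Hexa, Asah1, Man2b1, Npc1, Lipa, Ppt1, Naaa, Cd68 and Grn. The opposite order was found in 0. Over all genes tested, 2.65% rose and 0.378% fell in this way. By group means alone, 21 of the 39 had their lowest value in PBS and their highest in CpG1668+Dox, as had 17.7% of all genes.

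Markers of some blood cell types and handling genes moved with these genes. Summed monocyte markers (15 genes) were at 32.4 to 52.1 RPKM in PBS, 159 to 181 with CpG1668, 121 to 195 with Dox and 330 to 485 with CpG1668+Dox, and 14 of 14 tested rose in each of the 3 comparisons with PBS. Summed late neutrophil markers (15 genes) were at 109 to 221, 651 to 849, 586 to 2320 and 1740 to 4560 in the same order, with 10, 14 and 14 of 14 tested called higher. Splenic macrophage markers (15 genes), which matter here because such cells are rich in lysosomal transcripts, summed to 19.0 to 33.3, 28.4 to 41.6, 29.4 to 36.0 and 33.6 to 53.6. Of their 9 tested genes Adgre1 alone was called, higher in each treated group against PBS. With both agents 8 of the 9 had a log2 change above 0, with a median of 0.75 and 5 at an unadjusted p under 0.05 (limma). Of all 12167 genes tested, 6202 had a log2 change above 0 and 3607 an unadjusted p under 0.05 in this comparison. Group means from PBS to CpG1668+Dox were 2.47 and 4.94 RPKM for C1qa (limma adjusted p = 0.065), 2.48 and 4.93 for C1qb (0.053) and 1.37 and 3.09 for C1qc (0.072). Below the filter, Spic was at 0.52 and 1.33, while Timd4 and Cd163 did not exceed 0.215 and 0.433 in any library. Summed T and NK cell markers did not exceed 0.710, and the B cell markers Ms4a1 and Pax5 did not exceed 0.00954 and 0.00669. Summed B cell markers (8 genes) were at 0.975 to 1.16 in PBS and 6.79 to 10.2 in CpG1668+Dox. Ighm alone of them passed the filter, and it rose in all 3 comparisons with PBS (log2 1.53, 1.03 and 2.36). As part of that sum, Ighm did not exceed 1.16 RPKM in any PBS library, so a fall from PBS could hardly have been called. Summed mast cell and basophil markers (7 genes) were at 1200 to 1370 in PBS, 1230 to 1310 with CpG1668, 1320 to 1660 with Dox and 1500 to 1540 with both. Of their 6 tested genes 0, 0 and 3 were called higher against PBS. Of the tested megakaryocyte (2) and dendritic cell (1) markers, 0 were called in any comparison. Handling and stress genes (9) summed to 61.8 to 73.3 in PBS, 119 to 426 with CpG1668, 92.9 to 426 with Dox and 86.7 to 336 with both. Every treated library was above every PBS library, with median log2 changes of 1.46, 1.41 and 1.69. Of the 9, Fos alone was called, with both agents (2.14, adjusted p = 0.034). In bulk RNA, more cells of a type and more RNA per cell cannot be told apart, nor can host cells and leukaemia cells that express such markers. What part cell types and handling had in the lysosomal changes was not tested.

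**Figure D4:**
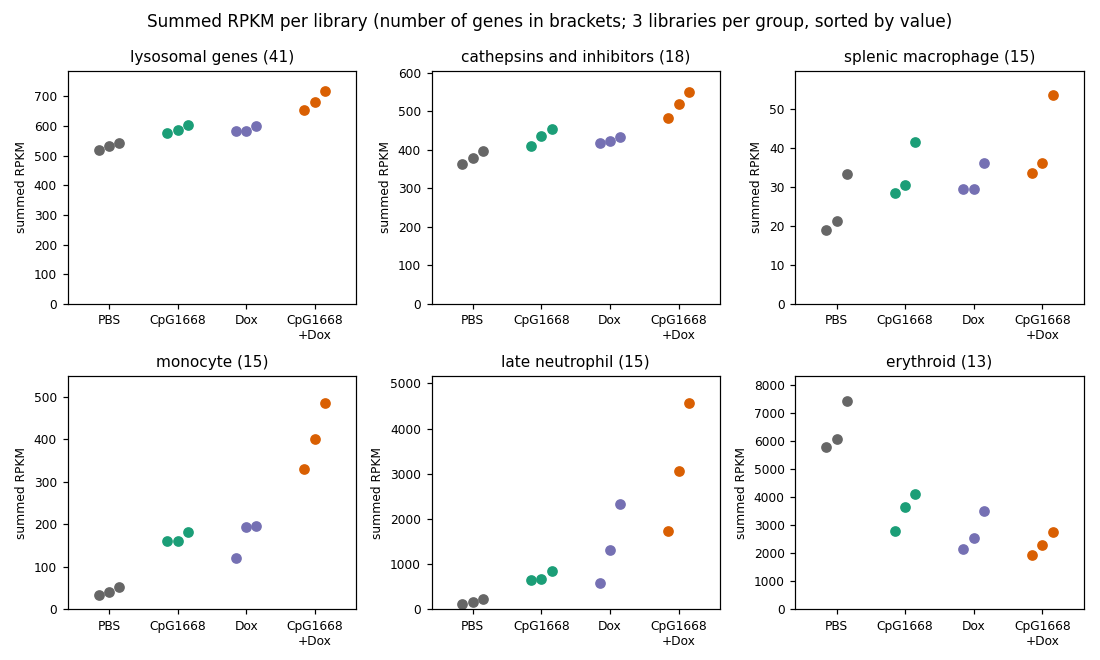
Summed RPKM (y axes, from 0) of the 41 lysosomal genes, of cathepsins and their inhibitors and of 4 marker lists, by group (x axis); points are the 3 libraries of a group sorted by value. Lysosomal genes rise from 519 to 541 in PBS to 654 to 718 in CpG1668+Dox, monocyte markers from 32.4 to 52.1 to 330 to 485, and erythroid markers fall.

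Within groups, some genes and marker sums differed together between libraries, and others did not. PBS library 2 had the most Psap and Gm2a of its group and also the highest macrophage marker sum (33.3 RPKM beside 21.3 and 19.0). Its sums of monocyte (52.1 beside 32.4 and 39.9), late neutrophil (221 beside 109 and 154) and erythroid markers (7430 beside 5770 and 6090) were the highest as well. Naaa (2.89), Ppt1 (9.53), Galns (2.57) and Man2b1 (20.6) were lowest of their group in that library. CpG1668+Dox library 3 was highest, and library 2 lowest, in Psap, Gm2a and Cd68. Hexa, Lipa, Ppt1, Naaa, Lamp1, Lamp2, Galns, Man2b1 and Atp6ap1 had this order too. Cln3 (2.82, 2.91 and 2.77 RPKM in libraries 1, 2 and 3) and Npc1 (1.86, 1.89 and 1.82) had the opposite order. Library 3 was also highest and library 2 lowest in the macrophage sum (53.6 and 33.6 RPKM), the monocyte sum (485 and 330 RPKM) and the late neutrophil sum (4560 and 1740 RPKM). Without PBS library 2, the log2 change with both agents was 1.31 for Psap, 1.24 for Gm2a and 1.23 for Cd68, with 18 members higher and 1 lower. Without CpG1668+Dox library 3, it was 1.15, 1.04 and 1.16, with 17 higher and 1 lower.

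Other genes of the lysosomal system were read from lists of cathepsins, other hydrolases, membrane proteins, proton pump subunits, sorting factors and regulators. With both agents against PBS, 10 of 15 tested cathepsin and inhibitor genes rose and 1 fell, with a median log2 change of 0.27. That is 66.7% higher, where 9.13% of all genes rose. Ctsc, which activates granule proteases, rose by 0.82 (adjusted p = 7.3e-07), the granule protease gene Ctsg by 4.42 (adjusted p = 8.9e-07), Ctss by 2.43 (adjusted p = 2.7e-06) and Ctsh by 1.71 (adjusted p = 2.9e-06). Among 24 other hydrolases and cofactors, 7 rose (29.2%) and 1 fell, with a median of 0.09. The phosphodiesterase gene Smpdl3a went from 13.1 ± 0.488 (SD, n = 3) to 20 ± 1.02 RPKM, the phospholipase-like Plbd1 from 1.77 ± 0.578 to 9.84 ± 2.11, the carboxypeptidase gene Scpep1 from 2.20 ± 0.115 to 3.67 ± 0.529 and Pcyox1 from 7.65 ± 0.214 to 9.16 ± 0.349.

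Of 33 other membrane proteins and transporters 5 rose (15.2%) and 0 fell, with a median of 0.06. Slc11a1, the metal transporter of phagosomes, went from 0.506 ± 0.178 (SD, n = 3) to 1.98 ± 0.284 RPKM, and Slc15a4, an endolysosomal histidine and peptide transporter that TLR9 signalling needs, from 1.91 ± 0.0964 to 3.16 ± 0.0274. The tetraspanin gene Cd9 went from 0.802 ± 0.192 to 2.66 ± 0.663 and Abca2 from 2 ± 0.0426 to 2.97 ± 0.321. Slc11a1 and Cd9 averaged below 1 RPKM in PBS and passed the filter through treated libraries. A fall from PBS could hardly have been called for them. Of 15 further proton pump subunits 3 rose (20%) and 1 fell. Of the alternative forms of the large membrane subunit, 1 rose, 1 fell and 1 was not called. They were Tcirg1 (the a3 form) from 6.34 ± 0.133 to 9.52 ± 1.28 (0.51, adjusted p = 0.00046) and Atp6v0a1 (the a1 form) from 6.58 ± 0.194 to 4.79 ± 0.464 (-0.39, adjusted p = 0.0017), and Atp6v0a2 (the a2 form), the most abundant of them, at 11 ± 0.219 and 11.2 ± 0.393 (0.03, adjusted p = 0.65). Atp6v1b2 and Atp6v0c rose by 0.18 (adjusted p = 0.015) and 0.16 (adjusted p = 0.03).

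Mannose 6-phosphate sorting had 2 of 16 tested genes higher (12.5%, near the 9.13% of all genes) and 0 lower, and both are sorting receptors outside the mannose 6-phosphate receptors proper. Of those receptors, M6pr was not called, at 70.2 ± 2.54 (SD, n = 3) and 67.8 ± 0.743 RPKM in PBS and CpG1668+Dox. Igf2r was below the filter and not tested, at 0.0953, 0.194 and 0.143 in PBS and 0.551, 0.32 and 0.673 in CpG1668+Dox. Sort1 encodes sortilin, which carries prosaposin, and went from 1.46, 1.69 and 1.61 RPKM in PBS to 4.27, 3.47 and 5.44 in CpG1668+Dox (1.05, adjusted p = 9.7e-05). Sorl1 went from 0.241, 0.388 and 0.339 to 2.67, 1.93 and 3.30 (1.44, adjusted p = 2e-05). Being below 1 RPKM in every PBS library, Sorl1 passed the filter through treated libraries, so a fall from PBS could hardly have been called. Of 15 genes for lysosomal transcription and nutrient sensing 1 rose (6.67%) and 1 fell. Lamtor2, a scaffold of mTORC1 on the lysosome, rose by 0.18 (adjusted p = 0.0033) and Fnip2 fell by 0.25 (adjusted p = 0.013). The medians of these 2 lists were 0.04 and 0.05.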

How the data were processed

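The deposited files hold RPKM values that the authors made, 1 library per file. STAR 2.7.9, Partek 7.18.0723 and build mm10 are named in the submitters' processing notes, without the step each did; for annotation, filters and strand use the sources used here give nothing. RPKM is no count, so log2(RPKM + 1) was fitted with limma 3.58.1 (R 4.3.3, intensity trend) as 4 group means over 12 libraries, for the 12167 genes that average 1 RPKM or more. The pseudocount of 1 understates the change of low genes. A gene below 1 RPKM in PBS could pass the filter through its treated libraries. For such genes, in any list, a rise was likelier to be called than a fall. P-values were adjusted (Benjamini-Hochberg) over these genes in each of 7 contrasts.

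Depth was estimated from the step of 1 read in RPKM times length over genes with 1 GENCODE M21 transcript; 72.7% to 74.2% of the values used, up to 10 reads, lay within 0.05 of a whole read. These limits cover counting error only. No pair of files was identical (0). Values in every library are printed for members called with group means at least 25% apart as a ratio, means for the other called members, and up to 4 called genes with the smallest p from each further list. Atp6v0a2 and the single marker genes of blood cell types were named after their values were seen. The members and lists were chosen with earlier results of these data known. Alternatives tried were no filter or one at 5 RPKM, a pseudocount of 0.1, quantile normalization or scaling by median ratios, fits without the trend or on the compared groups alone, the replicate number as a block, and each library left out in turn. The fits were tested on simulated data.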

Additional observations from a re-analysis of the deposited data

How the results depend on the processing

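The count of lysosomal genes called in each comparison stayed within 1.5 times its reported value under all 8 other settings, and no change of a called gene reversed. With CpG1668+Dox against PBS it was 19 as reported and ran from 14 (a mean RPKM of at least 5, with 25 members tested) to 21 (no filter, with 41). Leaving out each library in turn gave 16 to 20 for CpG1668+Dox against PBS, 5 to 7 for CpG1668 against PBS, 5 to 8 for Dox against PBS, 5 to 9 for CpG1668+Dox against CpG1668, 6 to 11 for CpG1668+Dox against Dox, and 0 for CpG1668 against Dox and for the interaction. The replicate block gave 19, 5, 6, 6, 9, 0 and 0 calls in the same order. Same-numbered libraries did not deviate together (r from -0.21 to 0.27), so the numbers are not taken as pairs. The block ended the calls of Asah1 in CpG1668 against PBS (adjusted p = 0.058) and of Gm2a and Lamp1 in CpG1668+Dox against CpG1668 (both 0.052). Of 48 single calls, the fit of only the groups compared ended 7, namely Asah1 in CpG1668 and Gm2a in Dox against PBS, Npc1 in CpG1668+Dox against PBS, Grn in CpG1668+Dox against CpG1668, and Galns, Lamp1 and Ppt1 in CpG1668+Dox against Dox (adjusted p of 0.053 to 0.15). No filter ended 5, those of Gm2a in Dox against PBS, of Gm2a, Grn and Lamp1 in CpG1668+Dox against CpG1668 and of Ppt1 in CpG1668+Dox against Dox (0.053 to 0.088). Quantile normalization ended 2, Npc1 in CpG1668+Dox against PBS (0.15) and Lamp1 in CpG1668+Dox against CpG1668 (0.067). Arsb and Sgsh, below 1 RPKM on average, were tested only without the filter, and how far depth limits them was not tested.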
